A study of Mus musculus with 12 samples.

Results

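The 10 genes described here are targets of the hypoxia-inducible factors (HIFs) that lie outside the glycolytic chain: Bnip3, Bnip3l, Mif, Mgarp, Egln3, Vegfa, P4ha1, Ndrg1, Higd1a and Ankrd37. They were taken by name from a list, each as a row of the deposited expression table, which holds 47359 gene rows in all, and the rule used no expression value. The list was, however, chosen with earlier results of these data known, so the counts below are not independent of the data. The table comes from 12 RNA sequencing libraries of TH17 cells, helper T cells that make interleukin-17, transferred into RAG2-/- mice and sorted back from the central nervous system (CNS) at the peak of experimental autoimmune encephalomyelitis (EAE), an induced disease of mice that models multiple sclerosis. The donor genotypes were 2D2-WT and 2D2-IL-17A/F-DKO. Both labels name 2D2, a transgenic T cell receptor that recognises myelin oligodendrocyte glycoprotein, but the receptor counts of the DKO libraries, given below, go against that label. All hosts were RAG2-/-, a genotype that makes neither T nor B cells but keeps myeloid, glial and other cells. WT CXCR6+ and WT SLAMF6+ cells gave 5 libraries each, DKO CXCR6+ and DKO SLAMF6+ cells 1 library each, all from 1000 living cells. CXCR6 and SLAMF6 are the surface proteins used for the sort. No age, number of hosts or pooling is given in the sources used here, nor is it said whether replicates came from separate animals, so the p-values measure only the spread between these samples, which may be technical. With a single library per DKO group, the DKO tests borrow their spread from the WT libraries.

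HIF is a pair of proteins, an oxygen-controlled alpha chain such as HIF-1α and the stable partner ARNT. In normal oxygen, prolyl hydroxylases of the EGLN family mark the alpha chain and the VHL ubiquitin ligase removes it. When oxygen is low the alpha chain persists and the pair binds a short DNA core, the hypoxia response element. HIF-1α is also made by activated T cells in ordinary oxygen, and it is known for promoting TH17 differentiation. Bnip3 and Bnip3l encode receptors in the outer mitochondrial membrane that hand mitochondria to the autophagy machinery, a process called mitophagy.

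The cores ACGTG and GCGTG were searched on both strands (as CACGT and CACGC where they lie on the other strand) in the 250 bases upstream of each RefSeq start (mouse build GRCm38.p6). A promoter entry was matched for 8 of the 10 genes, with 2 starts for Vegfa; Bnip3l and Ndrg1 had no matched entry. Of those 9 promoters, 7 held at least 1 core and 5 held at least 2, against 38.6% and 16.7% of all 32817 promoters of the same length. Not all of these cores lie outside the genes. For the first Vegfa start, which is inside the gene, and for Higd1a, the stretches around the matches (36 and 33 bases) lay wholly in the gene's own annotated exons. The 250 bases searched for Ankrd37 also lay inside the annotated gene, with 17 of them in its own exons. The second Vegfa start, at the 5′ end of the gene, held 0 cores. The member promoters are rich in G and C, and of the 18340 promoters with a GC content at or above their lowest value of 50.8%, 52.3% held a core. Bnip3 is shown because it had 5 matches and, of the genes with counts in both DKO libraries, the largest DKO fold changes, P4ha1 because it had 3 matches and the smallest called WT difference, and Mgarp and Egln3 for their single matches. The stretches hold the matches with 12 bases or fewer on either side, 5′ to 3′ on the strand of the gene, with the cores in capitals.
Bnip3, chr7:138909525-138909635, minus strand: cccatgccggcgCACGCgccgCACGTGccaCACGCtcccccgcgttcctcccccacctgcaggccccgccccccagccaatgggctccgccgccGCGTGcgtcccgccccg
P4ha1, chr10:59323121-59323295, plus strand: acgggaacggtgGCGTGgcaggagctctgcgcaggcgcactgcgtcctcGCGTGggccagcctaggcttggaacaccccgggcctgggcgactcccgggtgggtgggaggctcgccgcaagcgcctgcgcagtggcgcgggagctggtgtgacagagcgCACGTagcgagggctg
Mgarp, chr3:51396750-51396778, minus strand: gagcgggtcaggCACGTaacagcgacttc
Egln3, chr12:54204087-54204115, minus strand: tgtgcatctcagACGTGagatccaggttt
CACGTG in the Bnip3 stretch reads the same on both strands and counts as 2 overlapping matches. It is also the letter pattern known as an E-box. A match is only a run of letters, and binding was not measured.

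**Figure D1:**
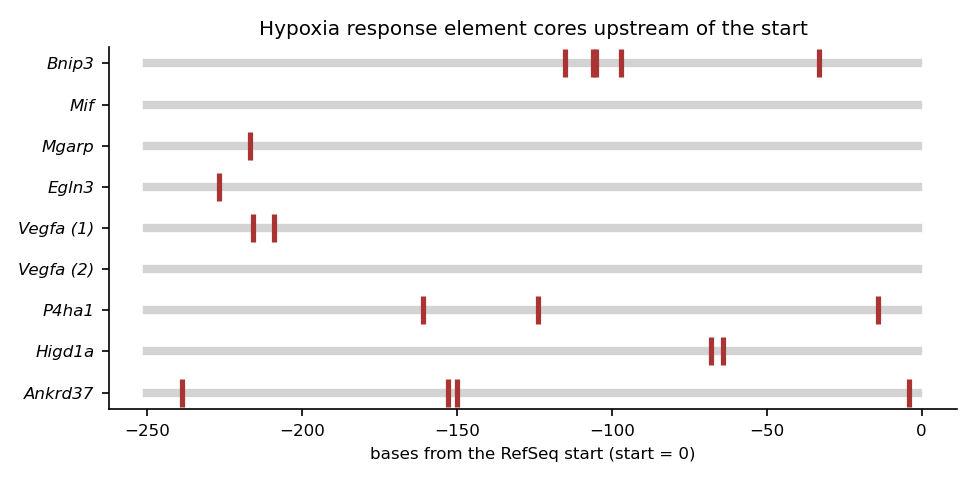
Position of each core match (red ticks) in the 250 bases upstream of the RefSeq start for the 9 matched promoters (grey bars), with the x axis in bases from the start. Bnip3 holds 5 matches and Ankrd37 holds 4; Mif and the second Vegfa start hold 0.

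The 5 WT CXCR6+ libraries totalled between 6818658 and 8710148 counts and the WT SLAMF6+ libraries between 8134987 and 11635037. The DKO CXCR6+ total was 8552216 counts and the DKO SLAMF6+ total 8285134. Il17a, a targeted gene, had 1622 to 4751 counts in each WT library, 0 in DKO CXCR6+ and 3 in DKO SLAMF6+. Trbv16, the beta segment of the 2D2 receptor, made up 99.61% to 99.81% of the T cell receptor Trbv counts in WT libraries but 9.959% and 6.514% in the DKO CXCR6+ and SLAMF6+ libraries, so most DKO receptor transcripts were not those of 2D2. Xist, expressed in female cells, had 447 to 1846 counts in each WT library and 0 in both DKO libraries, whereas the Y-linked Ddx3y had 0 in WT and was counted in both DKO libraries (314 in CXCR6+). Receptor repertoire, donor sex, donor animals and genotype therefore cannot be told apart. Cxcr6 transcripts did not separate the WT sorts, at 4.34 to 42.9 CPM in the CXCR6+ libraries and 11.4 to 19.2 CPM in the SLAMF6+ libraries, with CXCR6+ replicate 3 (4.34 CPM) below all of the latter. The DKO CXCR6+ and SLAMF6+ libraries held 382 and 162 CPM of Cxcr6, both above every WT library. Slamf6 did separate the WT sorts (1.69 to 5.02 CPM in CXCR6+, 5.90 to 11 CPM in SLAMF6+) and stood at 75.8 and 259 CPM in DKO CXCR6+ and SLAMF6+. mt-Ts1, a mitochondrial transfer RNA, was at 0 in 4 of 5 WT SLAMF6+ libraries (all but replicate 2) but in 1 of 5 from WT CXCR6+ (replicate 1), against 15652 to 35643 CPM elsewhere, so its absence moved with the WT groups. Pan-T-cell markers (Cd3d, Cd4, Trac, Lck and 6 others) summed to between 4066 and 7293 CPM over the 12 libraries (CPM is a gene's count scaled to a common library total). Neutrophil markers summed to 1011 CPM in the DKO CXCR6+ library and to 86.9 CPM in the other DKO library. In WT they summed to at most 3.79 CPM. The larger sum was mostly S100a8 (498), S100a9 (426) and Camp (81.8), while Mpo, Retnlg and Cxcr2 were at 0 there. In the other DKO library S100a9 (45.6) and S100a8 (26.2) led, and Ly6g, Mpo and Elane were at 0. Of 8 tested neutrophil genes, 3 were higher and none lower in each DKO library. Haemoglobin genes took 11.9% of the counts of DKO SLAMF6+ and at most 0.00021% elsewhere. Mitochondrially encoded genes took 12.9% to 17.6% of counts in WT CXCR6+ and 2.2% to 5.24% in WT SLAMF6+, while cytosolic ribosomal protein genes took 9.24% to 10.6% and 18.5% to 19.7%. The 10 genes are described below in CPM, scaled with TMM factors, which adjust library totals for differences in composition. In bulk RNA, fewer cells that express a gene and less RNA per cell cannot be told apart.

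In WT cells, 9 of the 10 genes were lower in CXCR6+ than in SLAMF6+ cells and none was higher (7 lower once transcript length and GC content were offset, which turned Ankrd37 to 0.23). Both mitophagy receptors, both small mitochondrial membrane proteins, the oxygen sensor Egln3 and the cytokine Mif were 2.2- to 2.9-fold lower. Vegfa was the gene that did not pass. The quasi-likelihood test of edgeR was used, with p adjusted over 21565 genes (Benjamini-Hochberg) at a threshold of 0.05, by which 17.7% of all tested genes were lower and 15.6% higher in WT CXCR6+. For 8 of the 10 genes every CXCR6+ library lay below every SLAMF6+ library, a pattern held by 15.0% of all tested genes. The median log2 fold change of the 10 was -1.17, beside 0.13 over all genes.

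Bnip3 (chromosome 7, 138890836 to 138909519, minus strand, GRCm38) stood at 94.1, 107, 120.1, 115 and 120.3 CPM in WT CXCR6+ replicates 1 to 5. In WT SLAMF6+ it stood at 335, 304, 313, 317 and 369.8 CPM. The lowest SLAMF6+ library was far above the highest CXCR6+ library, and the difference was -1.56 on the log2 scale (SE 0.083, edgeR adjusted p = 5.69e-07). Bnip3l, also called Nix and the mitophagy receptor known for clearing mitochondria from maturing red cells (chromosome 14, 66985239 to 67008877, minus strand), stood at 159, 193, 169, 197 and 202 CPM in WT CXCR6+. Its WT SLAMF6+ libraries held 467, 461, 464, 430.5 and 518 CPM. The groups did not overlap here either (log2 -1.35, SE 0.080, edgeR adjusted p = 9.45e-07).

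Mgarp encodes a mitochondrial protein known for mitochondrial positioning and transport (chromosome 3, 51388412 to 51396738, minus strand). Its levels were 28.6, 29.5, 36.8, 27.8 and 30.3 CPM in WT CXCR6+ but 89.5, 81.0, 82.3, 80.7 and 90.9 CPM in WT SLAMF6+. Replicate 3 was the highest CXCR6+ library and still lay under every SLAMF6+ library (log2 -1.47, SE 0.086, edgeR adjusted p = 8.5e-07). Higd1a, an inner-membrane protein that associates with the respiratory chain (chromosome 9, 121848563 to 121858362, minus strand), ranged from 230.0 to 317 CPM in WT CXCR6+ but from 598 to 674 CPM in WT SLAMF6+. It was lower in CXCR6+ by a log2 difference of -1.16 (SE 0.089, edgeR adjusted p = 3.65e-06).

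Egln3 is a prolyl hydroxylase that marks the HIF alpha chain and is itself induced by HIF (chromosome 12, 54178981 to 54203860, minus strand). It stood at 79.5, 86.4, 62.7, 93.9 and 86.4 CPM in WT CXCR6+ but at 193, 186, 196, 168 and 229 CPM in WT SLAMF6+. Replicate 3 was the low CXCR6+ library and replicate 4 the low SLAMF6+ library, without overlap (log2 -1.25, SE 0.114, edgeR adjusted p = 1.2e-05). Mif encodes a secreted cytokine, macrophage migration inhibitory factor (chromosome 10, 75859353 to 75860240, minus strand). It was the most abundant of the 10, at 1362, 1509, 1600.3, 1422 and 1641 CPM in WT CXCR6+ but 3335, 3153, 3668, 3489 and 3587 CPM in WT SLAMF6+. All CXCR6+ values lay below all SLAMF6+ values (log2 -1.19, SE 0.072, edgeR adjusted p = 9.82e-07).

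Vegfa, the endothelial growth factor (chromosome 17, 46016993 to 46032369, minus strand), was close to the limit of detection in these T cells. It stood at 2.41, 2.74, 2.40, 0.797 and 1.56 CPM across the WT CXCR6+ libraries and at 0.479, 0.983, 1.57, 1.17 and 2.77 CPM in WT SLAMF6+. The groups overlapped and the difference did not pass (log2 0.50, 95% interval -0.63 to 1.63, edgeR adjusted p = 0.478), with a 2-fold rise inside the interval and a 2-fold fall outside it. Its WT counts ran from 5 to 28 per library.

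The remaining 3 genes differed less. Ndrg1, a cytoplasmic stress-response protein (chromosome 15, 66929318 to 66969640, minus strand), ranged from 57.8 to 83.2 CPM in WT CXCR6+ but from 118 to 148 CPM in WT SLAMF6+ (log2 -0.94, SE 0.110, edgeR adjusted p = 6.81e-05). Ankrd37, an ankyrin-repeat protein (chromosome 8, 45996902 to 46005707, minus strand), ranged from 18.7 to 39.0 CPM in WT CXCR6+ but from 39.7 to 51.2 CPM in WT SLAMF6+, so its groups barely separated (log2 -0.73, SE 0.173, edgeR adjusted p = 0.00744). P4ha1, the catalytic chain of collagen prolyl 4-hydroxylase (chromosome 10, 59323296 to 59373304, plus strand), stood at 56.3, 66.9, 35.9, 76.0 and 57.9 CPM in WT CXCR6+ but at 84.5, 70.9, 84.8, 87.5 and 84.2 CPM in WT SLAMF6+. Its groups overlapped, with CXCR6+ replicate 4 above SLAMF6+ replicate 2, and the difference passed narrowly (log2 -0.49, SE 0.165, edgeR adjusted p = 0.0413). That call was lost in 16 of 31 alternatives, among them the fits without CXCR6+ replicate 1 (log2 -0.48, adjusted p = 0.0796) or 5 (-0.49, 0.0737) and without SLAMF6+ replicate 1 (-0.48, 0.0768), 3 (-0.48, 0.0771), 4 (-0.47, 0.0841) or 5 (-0.48, 0.0763); adjusted p over all ran from 0.0124 to 0.3. Leaving out number 1, 3 or 5 in both WT groups also ended it (adjusted p = 0.13, 0.0503 and 0.122), as did the fit without the DKO CXCR6+ library (0.0529).

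**Figure D2:**
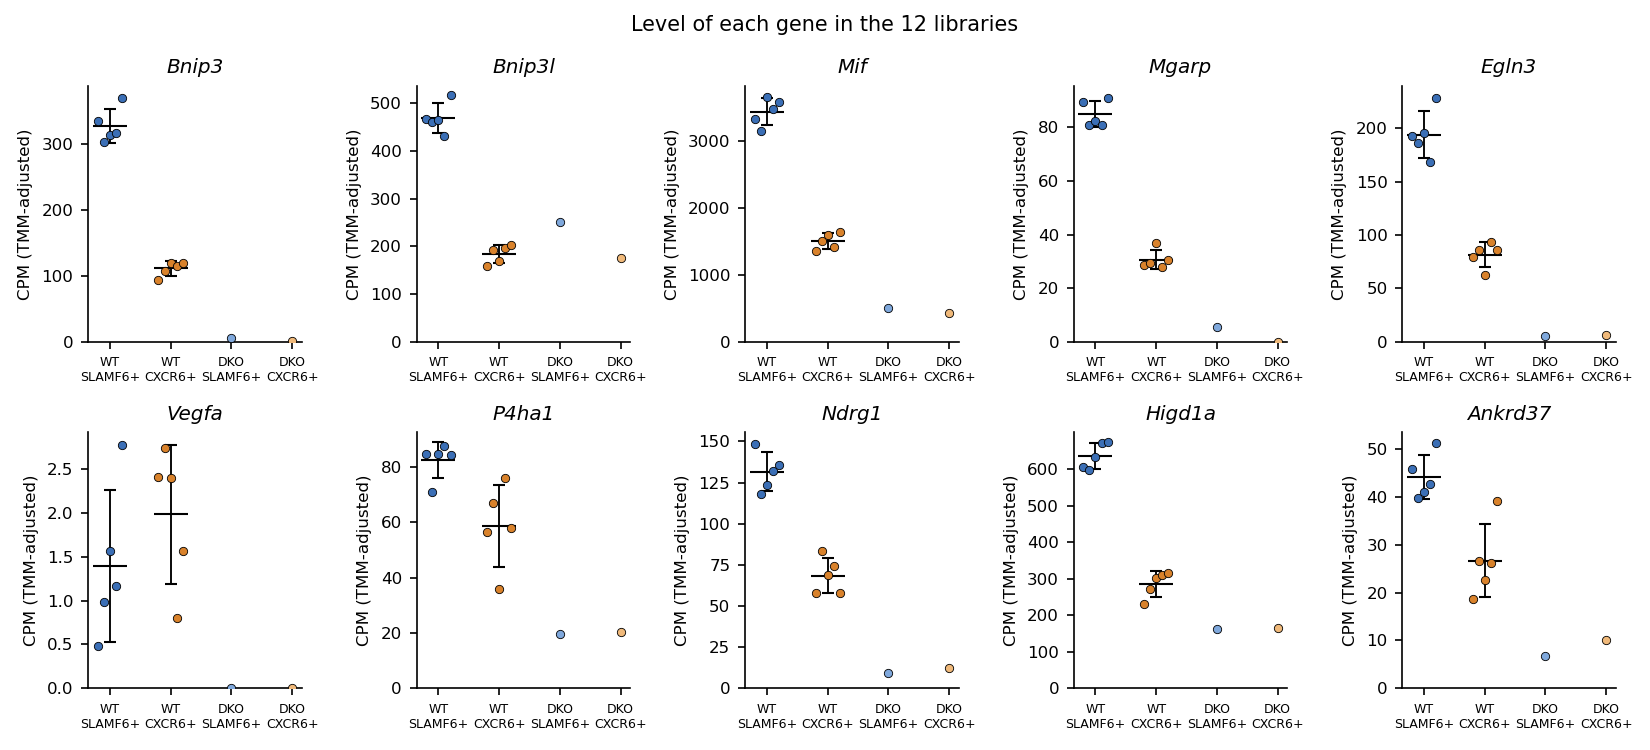
CPM of each gene (y axes from 0, a scale for each panel) in the 12 libraries by group; points are libraries, bars the mean ± SD of the 5 WT libraries of a subset. For 8 genes the WT CXCR6+ points all lie under the WT SLAMF6+ points; for Bnip3 both DKO points lie near 0, at 1.16 and 5.50 CPM.

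The WT difference moved with transcript length. Over 5292 genes, longer genes had higher log2 fold changes (Spearman rho 0.406 across genes, which are not independent replicates). With offsets for transcript length and GC content the differences of Bnip3 and Mgarp shrank to -0.91 and -0.70 and stayed called, P4ha1 no longer passed (-0.21, adjusted p = 0.3) and Ankrd37 turned to 0.23 (adjusted p = 0.293). Under those offsets 7 of the 10 genes were called lower, and over all genes 2197 were lower and 4270 higher in place of 3816 and 3363. With library totals that leave out receptor, mitochondrial and ribosomal protein genes, 9 of the 10 were again called. With a term for mt-Ts1 at 0, 8 of the 10 were called, without P4ha1 (-0.43, adjusted p = 0.208), and 5128 of all genes in place of 7179. Marker sums of some other cells were higher in WT SLAMF6+ too. The astrocyte list (8 genes) summed to between 205 and 238 CPM there and between 94.2 and 124 CPM in WT CXCR6+. Most of it was Aldoc and Gja1, and Aldoc is also in the glycolytic chain list used below. Gfap was at 0 in WT SLAMF6+. Of the 5 tested astrocyte genes 2 were lower and 1 higher in WT CXCR6+. The oligodendrocyte list (9 genes) summed to between 172 and 215 against 87.8 and 113 CPM, mostly Cnp and Mbp, with Mog at most 0.0972 CPM; of 5 tested genes 3 were lower and none higher. Myeloid markers summed to between 68.7 and 92.0 against 24.3 and 52.1 CPM, with Lyz2 at 0 in WT SLAMF6+; of 14 tested genes 2 were lower and 1 higher. The part of other cells in the WT differences was not tested.

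**Figure D3:**
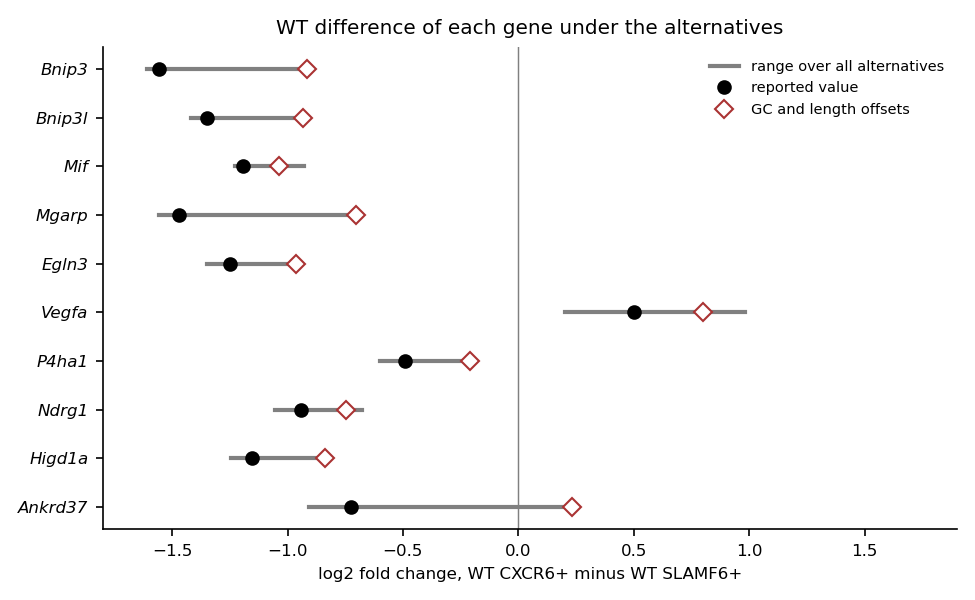
Log2 fold change of each gene in WT CXCR6+ against WT SLAMF6+ (x axis): the reported value (black), the range over all alternatives (grey) and the value with GC and length offsets (diamond). Bnip3, Bnip3l, Mif, Mgarp, Egln3, Ndrg1 and Higd1a stay below 0 in all of them. P4ha1 does too, although its call was lost in 16 of 31. Ankrd37 crosses 0 with the offsets, at 0.23.

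In CXCR6+ cells, 9 of the 10 genes were lower in the DKO library than in the 5 WT libraries, and Bnip3l was the exception. By the same edgeR test 15.9% of all genes were lower and 12.8% higher, and 28.1% of all genes lay below the whole WT range. The median log2 fold change of the 10 was -2.13, beside -0.22 over all genes (-2.13 and -0.06 with genes at 0 counts placed at a bound set by 3 counts). Bnip3 had 10 counts in the DKO library, or 1.16 CPM (95% exact Poisson interval 0.554 to 2.13), against 111 ± 11 CPM in WT (SD, n = 5). That is a 95.2-fold lower level (log2 -6.57, SE 0.247, edgeR adjusted p = 5.68e-08). Mgarp had 0 counts, at least 88.2-fold lower than its WT mean of 30.6 ± 3.59 CPM (n = 5) when the DKO level is set at a floor of 3 counts, 0.347 CPM. Intervals and floors cover counting error only.

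Bnip3l went another way. The DKO CXCR6+ library held 175 CPM, within the WT range of 159 to 202 CPM, and the difference was -0.07 (95% interval -0.38 to 0.23, edgeR adjusted p = 0.73). Egln3 fell to 6.71 CPM from 81.8 ± 11.8 CPM (log2 -3.61, SE 0.266, edgeR adjusted p = 2.95e-06). Ndrg1 fell to 12.6 CPM (log2 -2.44, adjusted p = 1.87e-05) and Mif to 426 CPM from 1507 ± 117 CPM (log2 -1.82, adjusted p = 4.43e-06). P4ha1 at 20.3 CPM and Ankrd37 at 10.2 CPM were lower by log2 -1.53 (adjusted p = 0.00459) and -1.39 (0.00982; 0.0543 when only CXCR6+ libraries entered the fit). Higd1a, at 165 CPM, had the smallest called difference (log2 -0.79, adjusted p = 0.00352), which ended with the GC and length offsets (-0.37, 0.0778). Vegfa had 0 counts, at least 5.72-fold lower by the floor (edgeR adjusted p = 0.00815, 0.134 with limma-voom).

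In SLAMF6+ cells all 10 genes were lower in the DKO library, in a comparison where 17.5% of all genes were lower and 13.5% higher by the edgeR test and 30.9% lay below the whole WT range. The median of the 10 was -3.31, beside -0.05 over all genes (-2.75 and 0 with the bounds). Bnip3 was again among the largest differences, at 5.50 CPM (38 counts, 3.89 to 7.55 CPM by Poisson) against 328 ± 26.1 CPM, a 59.4-fold lower level (log2 -5.89, SE 0.222, edgeR adjusted p = 5.69e-08). Egln3 fell from 194 ± 22.0 to 5.21 CPM (log2 -5.22, SE 0.295, adjusted p = 6.14e-07). Mgarp kept 39 counts, 5.65 CPM against 84.9 ± 4.92 CPM in WT (log2 -3.91, SE 0.202, adjusted p = 3.49e-07). Bnip3l, unlike in CXCR6+ cells, fell, to 251 from 468 ± 31.3 CPM (log2 -0.90, SE 0.146, adjusted p = 0.000785). With GC and length offsets its difference shrank to -0.44 (edgeR adjusted p = 0.0362). Haemoglobin genes took 11.9% of the counts of this DKO library, and the part of red cells in its Bnip3l level was not tested.

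Of the other genes, Ndrg1 fell to 9.12 CPM (log2 -3.85, edgeR adjusted p = 1.89e-06) and Mif to 503 from 3447 ± 206 CPM (log2 -2.78, adjusted p = 5.23e-07). Ankrd37 at 6.66 CPM was lower by log2 -2.72 (adjusted p = 0.000271), P4ha1 at 19.7 CPM by -2.06 (0.000864) and Higd1a at 162 CPM by -1.97 (1.27e-05). Vegfa had 0 counts, at least 3.21-fold lower by the floor of 3 counts, 0.434 CPM. Its call (edgeR adjusted p = 0.0142) was lost with limma-voom (0.212) and after thinning all libraries to the smallest total (0.0634). The GC and length offsets moved Bnip3 to -5.30, Mgarp to -3.21, Ankrd37 to -2.04 and Higd1a to -1.37, all still called, and over all genes 2799 were then lower and 4471 higher in place of 3784 and 2913.

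The part of host cells in these DKO differences was not tested. Neutrophil sums and the haemoglobin share are given above, and myeloid markers (15 genes) summed to 99.7 and 278 CPM in DKO CXCR6+ and SLAMF6+ against 24.3 to 92.0 CPM in WT. Of 14 tested myeloid genes 3 were higher and 3 lower in DKO CXCR6+, and 8 higher and 3 lower in DKO SLAMF6+. Lyz2 was at most 0.112 CPM in WT and at 10.4 and 1.88 CPM in the DKO libraries, while Aif1, C1qa, C1qb, C1qc, P2ry12, Adgre1 and Cd14 were at 0 in DKO CXCR6+ and C1qc, P2ry12 and Cd14 at 0 in DKO SLAMF6+. Pan-T-cell markers summed to 5466 CPM (DKO CXCR6+) and 5933 CPM (DKO SLAMF6+), within or close to the WT ranges of 4066 to 6176 and 6177 to 7293 CPM. Beneath these sums the markers moved in opposite directions. Of 10 tested, 6 were higher and 1 lower in each DKO library, where 12.8% and 13.5% of all genes were higher. Trac stood at 543 and 728 CPM in DKO CXCR6+ and SLAMF6+ against 2019 to 4157 CPM in WT. Cd3e stood at 578 and 544 CPM against 141 to 242 CPM.

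**Figure D4:**
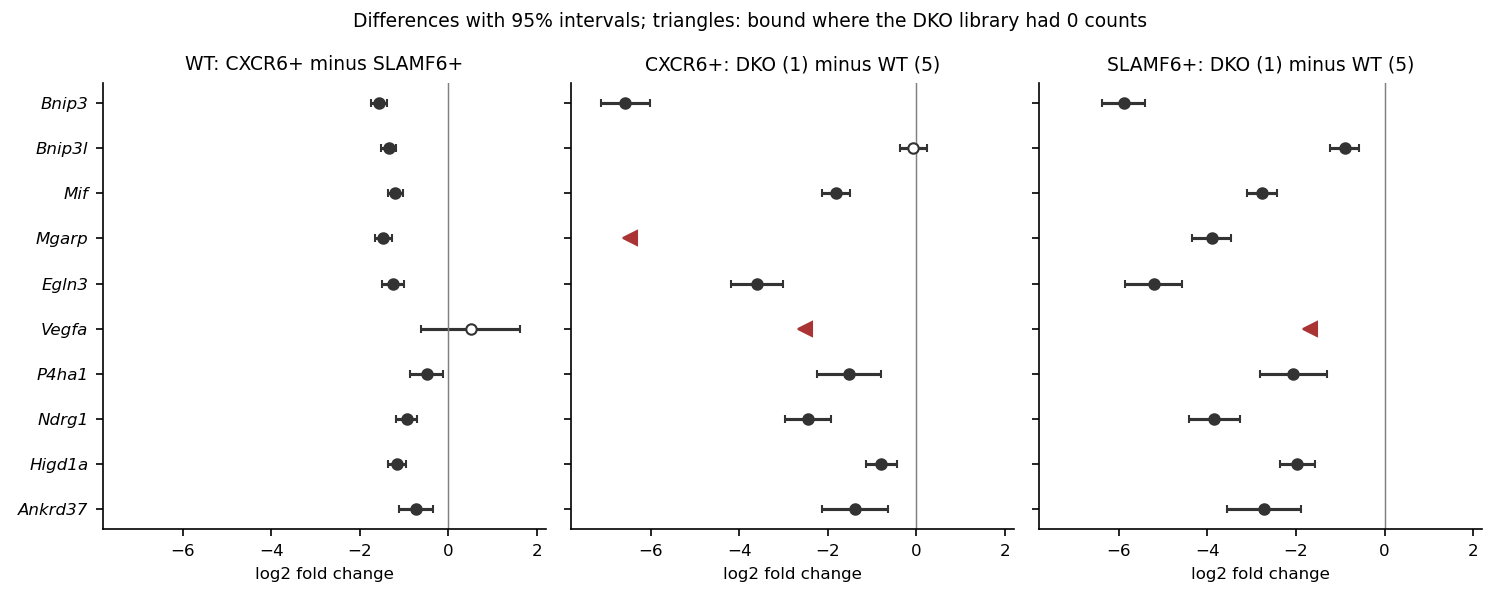
Log2 fold change (x axis) of each gene with its 95% interval in WT CXCR6+ against SLAMF6+ and in DKO (1 library) against WT (5 libraries) in each subset; filled points passed the test, open points did not, and triangles mark the bound, pointing to lower values, where a DKO library had 0 counts. Bnip3 lies at -6.57 and -5.89 in the DKO panels while Bnip3l lies at -0.07 and -0.90; Ankrd37 in the WT panel turns positive with GC and length offsets.

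The interaction term asked whether the DKO difference was the same in both subsets. It was called for 6 of the 10 genes, 5 with a smaller fall in CXCR6+ and 1 with a larger, where 6.36% and 3.94% of all genes were called in those directions. The 5 were Egln3 (log2 1.61, edgeR adjusted p = 0.0115), Ndrg1 (1.41, 0.0132), Higd1a (1.18, 0.00767), Mif (0.95, 0.0078) and Bnip3l (0.82, 0.0222). The other, Mgarp, rests on the 0 counts in the DKO CXCR6+ library beside 39 in DKO SLAMF6+, and its fitted value of -7.21 (adjusted p = 0.000473) depends on the prior count. With limma-voom 3 of the 10 were called. With the GC and length offsets the split over all genes turned, to 912 lower and 699 higher in place of 849 and 1372, and Bnip3l no longer passed (0.41, adjusted p = 0.252). Bnip3 did not pass (log2 -0.68, 95% interval -1.67 to 0.31, edgeR adjusted p = 0.409), nor did P4ha1 (0.54, 0.498) or Vegfa, with 0 counts in both DKO libraries. Ankrd37 did not pass either (1.34, 0.0949) but did without WT CXCR6+ replicate 5 (1.52, 0.0146), without number 5 in both WT groups (1.46, 0.0215) and with DESeq2's Wald test (1.27, 0.0492).

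Between the 2 DKO libraries, which have no replicates and no test, Bnip3 and Mgarp were lower in CXCR6+ (log2 ratio -2.06 and -4.73 with a prior count of 2). Bnip3l stood at -0.52 and Mif at -0.24. Egln3 (0.35), Ndrg1 (0.46) and Ankrd37 (0.59) were slightly higher in the CXCR6+ library, while P4ha1 (0.05) and Higd1a (0.03) were nearly level. In WT all 5 of these had been called lower in CXCR6+, P4ha1 narrowly and Ankrd37 not with GC and length offsets (0.23).

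Levels of different genes were set side by side per length, as a description with no test. Per kilobase of transcript, mean levels in WT SLAMF6+ ran from Mif at 5744 CPM per kb through Higd1a (285), Bnip3 (187), Bnip3l (144), Egln3 (73.0), Mgarp (60.2), Ankrd37 (47.6), Ndrg1 (32.5) and P4ha1 (20.4) to Vegfa (0.404). In WT CXCR6+ they ran from Mif at 2511 through Higd1a (128), Bnip3 (63.4), Bnip3l (56.5), Egln3 (30.7), Ankrd37 (28.7), Mgarp (21.7), Ndrg1 (16.9) and P4ha1 (14.5) to Vegfa (0.575). In DKO CXCR6+ the 2 highest were the same, Mif (710 CPM per kb) and Higd1a (74.0), followed by Bnip3l (53.6), while Bnip3 (0.658) stood above only Mgarp and Vegfa, both at 0. In DKO SLAMF6+ Mif (838) was followed by Bnip3l (77.0) and Higd1a (72.7), and Bnip3 (3.13) was in place 7, below Ankrd37 (7.19), P4ha1 (4.87) and Mgarp (4.01). Neighbours in the order, such as Egln3 and Ankrd37 in WT CXCR6+, were not tested against each other.

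Near-identical copies could take or lend reads. A processed copy, Bnip3l-ps, held 14.9% as many counts as Bnip3l over all libraries, and 4 copies of Bnip3 together held 2.5% as many. For Higd1a the copy Gm9790 held 6.0%. No strand setting is given in the sources used here. Ankrd37 shares 57 exon bases with Ufsp2 on the opposite strand, so a part of its reads is uncertain.

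Of 16 listed genes of the oxygen-sensing machinery, 3 were higher and 8 lower in WT CXCR6+, 5 higher and 3 lower in DKO CXCR6+, and 1 higher and 7 lower in DKO SLAMF6+ (7 higher and 2 lower in DKO CXCR6+, and 6 and 5 in DKO SLAMF6+, with GC and length offsets; medians -0.43, -0.03 and -0.27, beside 0.13, -0.22 and -0.05 over all genes). Over all genes 15.6% were higher and 17.7% lower in WT CXCR6+, 12.8% and 15.9% in DKO CXCR6+, and 13.5% and 17.5% in DKO SLAMF6+, close to the 3 higher genes in WT and the 3 lower in DKO CXCR6+. The offsets turned the DKO CXCR6+ median to 0.39. The alpha chains did not all move together. Epas1, an alpha chain, was higher in DKO CXCR6+, at 18.3 CPM against 0.195 CPM in WT (log2 6.44). In DKO SLAMF6+ it held 3.62 CPM against 1.31 CPM (log2 1.45) and did not pass. Hif3a, also an alpha chain, was at 0 CPM in both DKO libraries against 3.73 and 3.18 CPM in WT CXCR6+ and SLAMF6+. Hif1a, which encodes HIF-1α, stood at 328 ± 23.2 CPM in WT CXCR6+ but 474 ± 18.7 CPM in WT SLAMF6+ (log2 -0.53, edgeR adjusted p = 4.74e-05). It fell to 38.8 CPM in DKO CXCR6+ (log2 -3.08, adjusted p = 9.67e-08) and to 54.2 CPM in DKO SLAMF6+ (-3.13, 8.77e-08). Its partner Arnt was lower in DKO SLAMF6+ (-0.91, 0.00481) but did not pass in DKO CXCR6+ (-0.33, 0.234), and its WT difference (-0.32, 0.0365) was lost in 21 of 30 alternatives. Egln1, the main HIF prolyl hydroxylase, had a value above 0 in WT CXCR6+ (log2 0.44, edgeR adjusted p = 0.0252, lost in 11 of 30 alternatives) and was lower in DKO SLAMF6+ (-0.98, 0.0121). In DKO CXCR6+ it was at -0.78 (0.0325, lost in 9 of 28). Egln2 passed in none of these (log2 -0.16, -0.15 and 0.09), although with GC and length offsets it did in WT (-0.45, adjusted p = 0.0173) and, in the other direction, in DKO CXCR6+ (0.72, 0.0193). Elob, Eloc and Rbx1, subunits of the VHL ubiquitin ligase, were lower in WT CXCR6+ by log2 -0.85, -0.88 and -0.71, and the coactivator Crebbp was higher by 1.49.

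Most of the other HIF targets listed were lower in the DKO libraries. Of 31 tested, 2 were higher and 13 lower in WT CXCR6+, while 21 in DKO CXCR6+ and 25 in DKO SLAMF6+ were lower and none higher, with medians of -0.35, -2.28 and -2.96 (20 lower and 1 higher, and 19 lower, in the DKO libraries with GC and length offsets; 4 higher and 7 lower in WT). With the genes at 0 counts placed at their floor bound, the DKO medians were -2.28 and -2.72. Over all genes 15.6% were higher and 17.7% lower in WT CXCR6+, 12.8% and 15.9% in DKO CXCR6+, and 13.5% and 17.5% in DKO SLAMF6+. The medians over all genes were 0.13, -0.22 and -0.05. Fam162a, a mitochondrial protein linked to hypoxia, stood at 579 ± 61.3 CPM in WT CXCR6+ but 1328 ± 48.2 CPM in WT SLAMF6+ (log2 -1.20) and at 96.2 and 111 CPM in DKO CXCR6+ and SLAMF6+ (-2.59 and -3.58). Its WT call ended with GC and length offsets (-0.15, edgeR adjusted p = 0.0865), as did that of Hilpda (-0.07, 0.648). Hilpda, a lipid droplet protein, was lower by log2 -1.02 in WT CXCR6+ and by -2.85 and -3.86 in the DKO libraries. Ero1a, an oxidase of the endoplasmic reticulum, was lower by -1.11, -2.02 and -3.69 in the same order. Gbe1, the glycogen branching enzyme, was lower in WT CXCR6+ (-1.07) and DKO SLAMF6+ (-1.37) and did not pass in DKO CXCR6+ (-0.27, edgeR adjusted p = 0.461). In the glycolytic chain itself, 14 of 18 genes were lower and 1 higher in WT CXCR6+, and 17 of 18 were lower in each DKO library. The shares over all genes are those just given.

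As a list, mitophagy and autophagy genes went the same way as Bnip3 in WT but were mixed in the DKO libraries. Of 28 tested, 18 were lower and none higher in WT CXCR6+ (median -0.56), but 10 were higher and 2 lower in DKO CXCR6+ (0.22), and 5 higher and 8 lower in DKO SLAMF6+ (-0.12). With GC and length offsets these became 1 higher and 10 lower in WT, 13 higher and 1 lower in DKO CXCR6+, and 10 higher and 5 lower in DKO SLAMF6+, where the median turned to 0.24. Under the offsets the split over all genes in DKO CXCR6+ turned as well, to 3035 lower and 3475 higher in place of 3432 and 2767. Without the offsets 17.7% of all genes were lower in WT CXCR6+, and 12.8% were higher and 15.9% lower in DKO CXCR6+. In DKO SLAMF6+ 13.5% were higher and 17.5% lower, near the 5 higher genes of the list. Map1lc3b, which encodes the LC3 protein that mitophagy receptors bind on the autophagosome, stood at 76.1 ± 7.90 CPM in WT CXCR6+ but 170 ± 7.60 CPM in WT SLAMF6+ (log2 -1.16). The DKO CXCR6+ library held 180.1 CPM and the DKO SLAMF6+ library 220.3 CPM, at log2 1.24 (edgeR adjusted p = 1.94e-05) and 0.37 (0.0448, lost in 12 of 28 alternatives) over WT. Becn1, a subunit of the lipid kinase that starts the autophagosome, was lower in WT CXCR6+ (-0.58) and higher in DKO CXCR6+ (0.62) and DKO SLAMF6+ (0.35, edgeR adjusted p = 0.0233, lost in 3 of 28). Gabarap, a relative of LC3, was lower in WT CXCR6+ (-0.96; -0.18 and not called with the offsets) and higher in DKO CXCR6+ (0.50). In DKO SLAMF6+ it did not pass (-0.30, edgeR adjusted p = 0.0699), but it did with the offsets, as higher (0.42, 0.022). The cargo receptor Sqstm1 was lower in WT CXCR6+ (-0.78) and in DKO SLAMF6+ (-0.60; -0.16 and not called with the offsets), with 0.15 in DKO CXCR6+ not passing (edgeR adjusted p = 0.473).

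**Figure D5:**
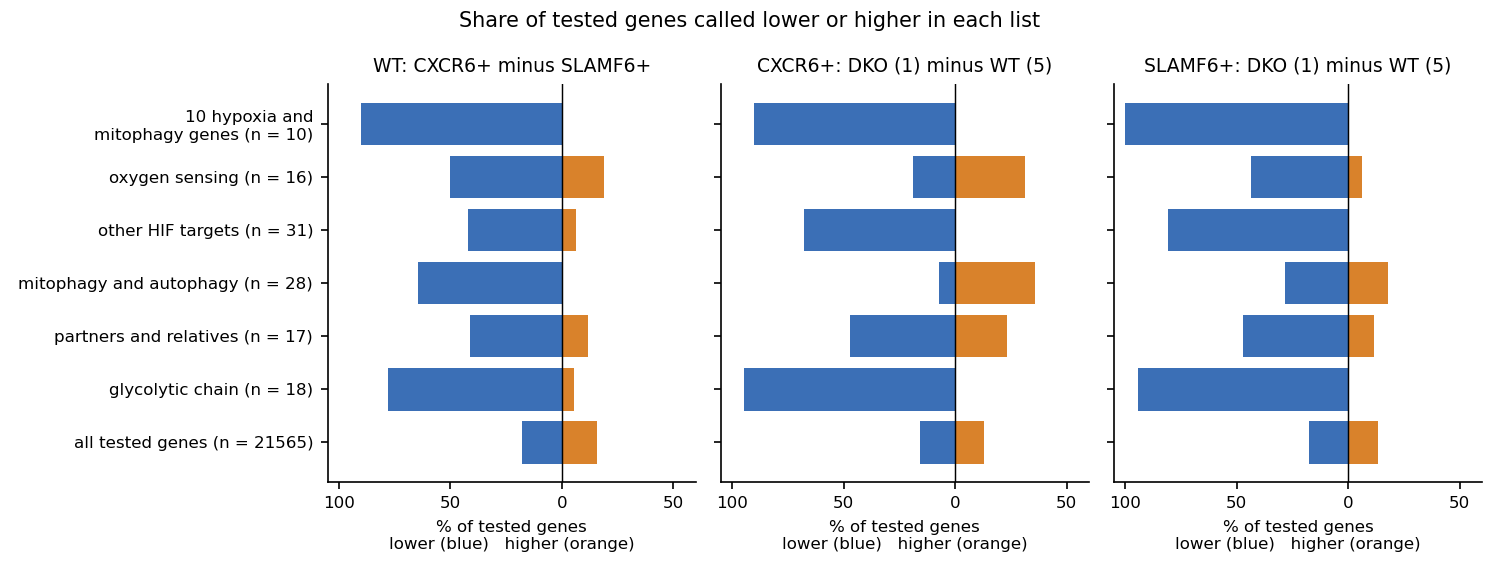
Percent of the tested genes of each list called lower (blue, left) or higher (orange, right) in the 3 comparisons, with all 21565 tested genes at the bottom. In the DKO CXCR6+ panel 9 of the 10 genes, 21 of 31 other HIF targets and 17 of 18 glycolytic genes are called lower, and the mitophagy and autophagy list has 10 higher and 2 lower of 28.

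Of the partners and relatives of the 10 genes, 17 were tested. Of these, 2 were higher and 7 lower in WT CXCR6+, 4 higher and 8 lower in DKO CXCR6+, and 2 higher and 8 lower in DKO SLAMF6+. The 2 higher genes in WT and in DKO SLAMF6+ are near the shares of 15.6% and 13.5% higher over all genes (list medians -0.23, -1.19 and -0.57; -1.02 in DKO CXCR6+ with genes at 0 counts at their bound). Ddt, the homologue of MIF, moved the same way as Mif: 167 ± 12 CPM in WT CXCR6+, 336 ± 25.2 CPM in WT SLAMF6+, with 40 CPM in the CXCR6+ DKO library and 45.0 CPM in the SLAMF6+ one (log2 -1.005 between the WT subsets, -2.06 and -2.90 for the DKO libraries). Cd74, a receptor for MIF and the invariant chain of MHC class II, was lower in WT CXCR6+ (log2 -1.65) and higher in both DKO libraries, at 61.2 and 350.3 CPM (1.01 and 1.87, edgeR adjusted p = 0.0036 and 3.12e-05). Myeloid cells and B cells also express it; B cell markers summed to at most 5.66 CPM, and the myeloid sums are given above. P4hb, the other chain of the P4ha1 enzyme, was lower in all 3 comparisons (-0.65, -1.19 and -1.95). Trak1, an adaptor of mitochondrial transport, was higher in WT CXCR6+ (0.90), lower in DKO CXCR6+ (-0.64, edgeR adjusted p = 0.0435, lost in 15 of 28 alternatives) and did not pass in DKO SLAMF6+ (0.34, 0.228).

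The genes whose profiles over the 12 libraries lay closest differed from member to member. Likeness was the root mean square difference of log2 CPM, each gene centred on its own mean, among 5068 genes with a mean of at least 20 CPM, so a small value means a similar profile. Mif lay closest to the glycolytic genes Aldoa (0.11) and Gapdh (0.13) and to Ddt (0.17), and Ndrg1 to Fignl1 (0.14), Pgk1 (0.18) and Hilpda (0.21). Egln3 lay closest to Cd83 (0.18), Tpi1 (0.19) and Avpi1 (0.2). Bnip3l lay closest to genes of translation, Rps26 (0.13), Eef1a1 (0.14) and Rpl3 (0.15), and Higd1a to Srgn (0.1), Dars (0.11) and Cstb (0.11). The nearest to Bnip3 were farther away, Il1r2 (0.36), Cystm1 (0.41) and Gja1 (0.43), where the median gene lay at 2.37, and Mgarp lay nearest to Selenbp1 (0.46), Bcl2l14 (0.55) and Perp (0.57). P4ha1 was closest to Hmgcs1 (0.15), Thap4 (0.16) and Nudt8 (0.17), and Ankrd37 to Eva1b (0.21), Mcub (0.23) and Impdh2 (0.24). All profiles share the same 12 libraries and their depth.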

How the data were processed

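Per the labels' protocols, 1000 sorted cells per library were turned into full-length cDNA (SMART-Seq2, modified). The authors deposited expected counts per gene, whole numbers in the deposited table, for which the submitters' processing notes name STAR 2.7.7a, RSEM 1.3.3 and mm10. No annotation, strand setting or rule for multi-mapping reads is given in the sources used here.

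The 10 genes, the other lists and the tests were chosen with earlier results of these data known. Expected counts were rounded, scaled by TMM, filtered by filterByExpr (21565 of 47359 rows kept) and tested with edgeR 4.0.16 (quasi-likelihood, 4 groups, 8 residual degrees of freedom, Benjamini-Hochberg adjustment, threshold 0.05) in R 4.3.3. SEs were derived from the fold change and its p. Positions are from GENCODE M21 (87.4% of rows matched), promoters from RefSeq. Listed genes named are the 4 with the smallest p between the WT subsets, plus Hif1a, Arnt, Egln1 and Egln2. Epas1 and Hif3a were added after seeing the data. Il17a and marker genes serve as checks. Alternatives used DESeq2 1.42.0, limma 3.58.1 (voom), other filters and scalings, left-out libraries, thinning, offsets for GC content and length (splines of 5 degrees of freedom), a replicate block and, chosen after seeing the data, a covariate for whether mt-Ts1 was at 0, totals without erythroid genes and fits without either DKO library. On simulated data the steps recovered 63% of 2-fold changes in WT, 16% in DKO CXCR6+, 21% in DKO SLAMF6+ and 2% in the interaction. For 4-fold changes the shares were 88%, 61%, 65% and 35%. A gene that did not pass in a DKO or interaction test may therefore still differ.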

Additional observations from a re-analysis of the deposited data

Results flagged for a closer look

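Among 20 groups of 5 WT libraries (10 genes in 2 subsets), 2 had a library that stood apart from the other 4 by Dixon's criterion, a gap over range above 0.71. Chance gives about 1 such group in 20. Mgarp stood at 36.8 CPM in WT CXCR6+ replicate 3 (gap over range 0.715). P4ha1 stood at 70.9 CPM in WT SLAMF6+ replicate 2 (0.799). The Mgarp difference kept its call in every fit that left out a library. For P4ha1 the fits without replicate 1, 3, 4 or 5 of WT SLAMF6+ did not pass, and the fit without replicate 2 did.

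The DKO difference itself differed between CXCR6+ and SLAMF6+ cells for 6 of the 10 genes by edgeR's interaction test, on 1 DKO library per subset. Over all genes the term was called higher for 6.36% and lower for 3.94%. Limma-voom called 3 of the 10, and Bnip3l did not pass with GC and length offsets. The fall was smaller in CXCR6+ by a log2 value of 1.61 for Egln3, 1.41 for Ndrg1, 1.18 for Higd1a, 0.95 for Mif and 0.82 for Bnip3l. For Mgarp the fitted value was -7.21, on 0 counts in the DKO CXCR6+ library. The CXCR6+ and SLAMF6+ DKO libraries differ from each other in haemoglobin share (0.00021% and 11.9%) and neutrophil markers (1011 and 86.9 CPM). Both neutrophil sums were mostly S100a8 and S100a9. The interaction was refitted with library totals that leave out erythroid genes, and 6 of the 10 genes were again called. Beside them 2220 of all 21686 tested genes were called. That refit changes only the scaling of the libraries. It cannot remove any reads of the called genes that may come from red cells or neutrophils. The part of those cells in the interaction was therefore not tested.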

How the results depend on the processing

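Of 9 genes called in WT, 6 to 9 were called over 31 alternatives (8 to 9 when a library or a replicate number was left out), with 6 at a threshold of at least 2-fold, where 2841 of all genes were called in place of 7179. In DKO CXCR6+ it was 8 to 9 of 9 (9 on leaving out) and in DKO SLAMF6+ 9 to 10 of 10 (10 on leaving out). The interaction was called for 3 with limma-voom in place of 6, and for 6 to 7 on leaving out libraries. Ankrd37 in WT reversed to 0.23 with GC and length offsets, which also moved the median of all genes from 0.13 to 0.31. The cause was not tested in any of these. With limma-voom, all genes split 2433 lower to 4125 higher in DKO CXCR6+ and 2772 to 4504 in DKO SLAMF6+. At least 10 CPM in 5 libraries turned the split to 1255 lower and 1039 higher in the interaction, 2463 and 2843 in WT and 2224 and 2463 in DKO SLAMF6+; Vegfa did not pass that filter.

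Libraries with the same replicate number did not deviate together (correlations -0.046 to 0.101 over 5 pairs, 1 above 0.1; 1 of 5 correlated best with its own number), so the numbers were not taken as pairs. With the replicate block, 9 of the 10 genes were called in WT (6943 of all genes in place of 7179) and 5 in the interaction, where Ndrg1 no longer passed (1.42, adjusted p = 0.0559). The DKO comparisons could not be fitted with the block, since both DKO libraries carry a number of their own. Depth limits Vegfa most: 3 counts, the floor, correspond to 0.347 and 0.434 CPM in the DKO libraries.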
